A study of Paralichthys olivaceus with 24 samples.

Results

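In muscle of olive flounder (Paralichthys olivaceus), a flatfish farmed in East Asia, 128 genes differed by at most 1.5 times among 12, 18 and 23 °C in the deposited values. At 28 °C they were at a level at least 4 times higher. They were chosen from a table of 11646 rows by their own values, in RPKM (reads per kilobase of transcript, scaled to the mapped reads of the library). A row was taken when it was not a noncoding RNA record, was at 1 RPKM or more at 12, 18 and 23 °C, had a highest value among these 3 libraries of at most 1.5 times the lowest, and had a 28 °C value of at least 4 times that highest value. The last quantity, the 28 °C level divided by the highest of the other 3 levels, is called the jump ratio below. Because these levels chose the genes, the levels and jump ratios are a description, with no test. Steadiness depended on the scaling of the libraries, and 40 of the 128 met the rule under all 3 scalings tried below.

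The labels describe 24 samples from fish aged 9 months, covering gill, liver and muscle in a series named A and a series named C, each combination being represented once. The values here are those of muscle in series C, from 4 samples at 12, 18, 23 and 28 °C, of which 12 °C is the temperature of acclimation. An acute regime moved fish through the temperatures at 3 h intervals, and a chronic regime warmed the water by 3 °C per h and held it for at least 20 h, with 15 fish per treatment. The labels do not tie A and C to these regimes or say whether a sample pools fish, and the other 20 samples were not analysed here. Each temperature is 1 library without a replicate column, so no value below has an error, and a difference between 28 °C and the rest is a difference of 1 library from 3 others.

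When a cell is warmed beyond its usual range, proteins lose their fold. The transcription factor Hsf1, which chaperones hold inactive in the unstressed cell, is then released, forms trimers and switches on genes for heat shock proteins. These chaperones bind unfolded stretches of other proteins and release them in cycles driven by ATP, aided by cochaperones that set the pace of the cycle or pass the client on to the next chaperone or to degradation. Unfolded proteins inside the endoplasmic reticulum set off a separate response through the membrane sensors Perk, Ire1 and Atf6. Skeletal muscle depends on dedicated chaperones because myosin and the thin filament do not assemble without them.

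From the steps that single reads leave in low values, the libraries at 18, 23 and 28 °C had 1.004, 0.981 and 1.013 times the depth of the one at 12 °C. Absolute depth is not given, and counting error near 1 RPKM was not estimated. All 11646 rows of the table lie at least 2-fold from 12 °C in 1 or more of the authors' comparisons, and rows that stayed close to 12 °C throughout are not in it. Of skeletal muscle markers, 6 were in the table and summed to 48252, 20947, 30853 and 38251 RPKM in order of temperature, with mylpf at 18 °C and atp2a1l at 23 °C listed at 0. The other 4 did not move alike: pvalb1 and cav3 were lower at each step, acta1a was lowest at 12 °C, and atp2a1 was highest at 23 °C. Liver markers, 33 in number, summed to 60.7, 5390, 70.6 and 529 RPKM in the same order, and that of 5 exocrine pancreas markers was 10.1, 167, 14.6 and 39.0 RPKM. Both sums were highest at 18 °C, and at 28 °C both were above their 12 and 23 °C values. Their part in the levels of the members was not tested. None of these liver and pancreas markers was steady or a member.

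The median over the members was 3.30, 3.45 and 3.18 RPKM in the 3 lower libraries and 25.9 RPKM at 28 °C. The jump ratio had a median of 5.46 and ran from 4.02 to 31.5, with 55 genes at 6 or more, 20 at 10 or more and 8 at 16 or more. At 28 °C the levels ran from 4.68 RPKM for mta2, a subunit of the NuRD chromatin complex, to 888 RPKM for unc45b, the myosin chaperone, and 21 genes were at 100 RPKM or more. By starting level, the share of steady rows that were members was 12.4% where the highest lower level was under 2 RPKM, 10.4% from 2 to under 5, 10.6% from 5 to under 10 and 8.39% at 10 RPKM or more.

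**Figure D1:**
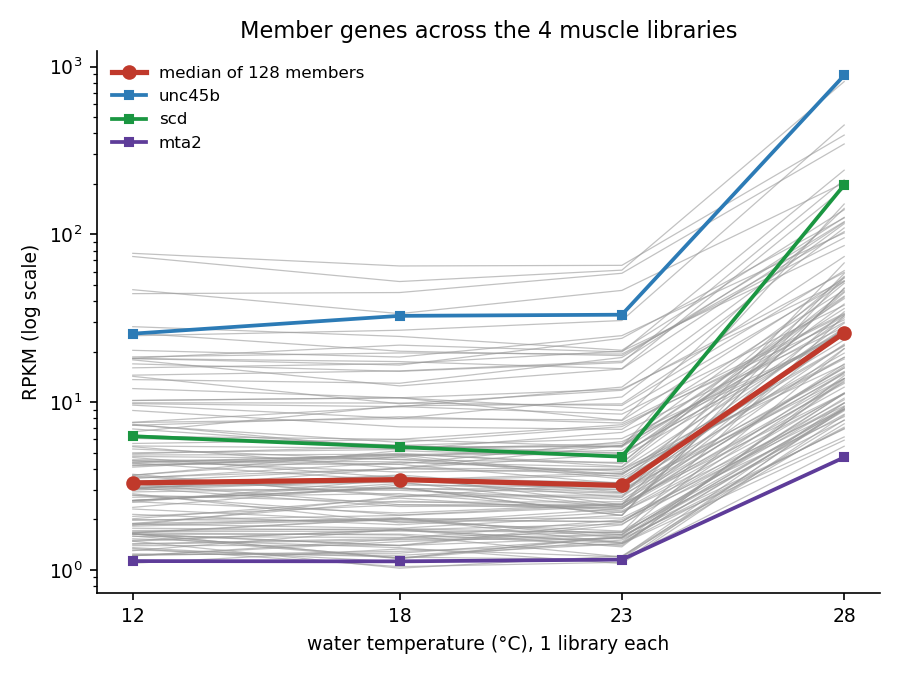
RPKM on a log scale against water temperature (°C), with 1 grey line for each of the 128 member genes, 1 library per temperature, and the median and 3 genes drawn in colour. The lines are nearly level from 12 to 23 °C by the rule and end between 4.68 and 888 RPKM at 28 °C.

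Of 1236 steady rows, meaning rows that met the rule's conditions on the 3 lower libraries, the 128 members were 10.4%. A further 436 were at 2 to under 4 times the highest lower level at 28 °C, 225 were at most at 50% of the lowest (18.2%), and 25 were at most at 25% of it (2.02%). Every row of the table is at least 2-fold from the acclimation library in 1 or more of the authors' comparisons. With the constants in those comparisons, a steady row cannot reach this at a lower temperature. Steady rows are thus in the table through their 28 °C value, and genes steady at all temperatures are missing. Shares of steady rows, here and elsewhere, are not shares of all steadily expressed genes. Among all 11164 rows not listed as noncoding RNA records, 400 (3.58%) were at 4 RPKM or more and at least 4 times higher at 28 °C. The members ended a continuous range, with no gap at the threshold. Just inside it lay abcf2 at a jump ratio of 4.02 and dnajb11 at 4.03, beside 1 gene without a symbol at 4.03. Just outside lay tm9sf1 and cunh20orf24 at 3.96 each and 1 gene without a symbol at 3.99. At the limit of steadiness, gskip and slc25a55a lay inside with highest over lowest ratios of 1.493 and 1.486, beside an unnamed gene at 1.497. The genes dhdds, plk3 and tifa lay outside at 1.508, 1.508 and 1.514. At the minimum level, maff, fosl2 and tbc1d20 lay inside with lowest values of 1.02, 1.04 and 1.09 RPKM. Outside it were dusp5, mblac1 and ippk at 0.977, 0.967 and 0.953 RPKM.

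**Figure D2:**
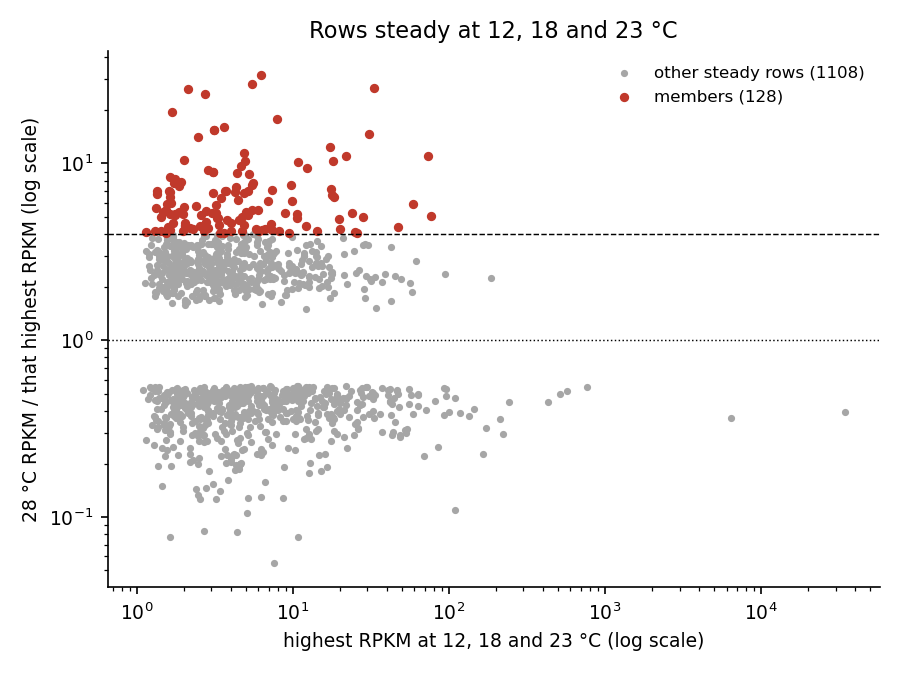
Jump ratio (28 °C RPKM over the highest RPKM at 12, 18 and 23 °C, log scale) against that highest RPKM (log scale) for the 1236 steady rows, with the 128 members in red, a dashed line at 4 and a dotted line at 1. The members continue upward from the 436 rows between 2 and 4, with an empty band around 1 in a table of rows that differ 2-fold.

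Which genes count as steady depended on the scaling of the libraries, while the jump depended on it less. Scaling each library by its median ratio over rows above 0 left 97 members, of which 72 were among the 128, and scaling by the constants in the authors' own comparisons left 66, of which 52 were. These scalings raised the 23 °C library against 12 °C by 0.26 and 0.35 on the log2 scale. They changed the 18 °C library by -0.14 and -0.09 and the 28 °C library by 0.02 and -0.14. Median scaling over rows at 1 RPKM or more, an alternative chosen after the data were seen, raised 18, 23 and 28 °C by 0.30, 0.57 and 0.64 and gave 153 members, 64 of them among the 128. The 3 scalings thus did not agree on 18 and 28 °C. Median scaling rests on most rows being unchanged, and this table holds only rows that changed at least 2-fold in 1 or more comparisons. Which scaling, if any, is right was not tested, so the counts below show only how membership moves. Under none of the 3 scalings did 43 of the 128 stay members. Under all 3 scalings 40 genes stayed members, among them scd, junbb, ptges3, dnajb1a, gadd45g, mknk1, stx5, slc25a55a, birc2 and bet1. The jump ratio of the 128 stayed at 2.89 or more under each of the 3, and at 4 or more under all 3 for 83. With the 12 °C library left out of the rule 225 rows passed, and with the 23 °C library left out 235 passed. A library left out no longer counts in the minimum, the steadiness limit or the jump ratio, so more rows pass by construction.

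The genes with the largest jump ratios were of varied roles. The stearoyl-CoA desaturase gene scd, whose enzyme puts the double bond into newly made saturated fatty acids, had 6.26, 5.39, 4.73 and 197 RPKM in order of temperature, a jump ratio of 31.5. It had the highest ratio of the set and stayed a member under all 3 scalings. The ubiquitin ligase gene herc4 was at 4.92, 5.43, 5.41 and 152 RPKM (27.9). The gene edrf1, named for a factor of red cell development in mammals, was at 1.88, 1.77, 2.12 and 55.5 RPKM (26.2). The small GTPase gene rrad, whose product restrains voltage-gated calcium channels, was at 1.85, 2.74, 2.71 and 67.6 RPKM (24.7). As deposited, the 28 °C library stood apart from the other 3 in each of these, but edrf1 and rrad passed the steadiness limit under none of the 3 scalings, with highest over lowest ratios of 1.59 to 1.68 and 1.76 to 2.18. The mitochondrial carrier gene slc25a55a followed at 3.13, 3.63, 2.44 and 58.5 RPKM (16.1), with its lower levels close to the limit of steadiness. The leiomodin gene lmod3, whose product nucleates actin for the thin filament, was at 18.3, 21.9, 19.9 and 242 RPKM (11.0). It was the 1 member among 10 steady rows of the sarcomere list, beside 10.4% of all steady rows. Of the 10, 2 were at least 2-fold higher and 2 at most at 50% at 28 °C, beside 45.6% and 18.2%. The 15 largest jump ratios also include 3 genes without a symbol.

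Chaperones and cochaperones of the cytosol, mitochondria and cytoskeleton made up 12 of the 128, in 3 gene lists, and those of the endoplasmic reticulum follow after them. Of cytosolic heat shock chaperones, 2 of 4 steady rows were members, beside 10.4% of all steady rows. The small heat shock protein gene hspb8, whose product works with Bag3 in clearing damaged sarcomere proteins, was at 73.9, 52.4, 61.2 and 815 RPKM from 12 to 28 °C, a jump ratio of 11.0. It had the second highest 28 °C level of the 128. The gene hspa4, for an Hsp110-type exchange factor that helps Hsp70 let go of ADP, was at 14.5, 15.4, 17.5 and 126 RPKM (7.21). The other steady rows of this list were hspb7, at a jump ratio of 2.12, and hspb6, at 0.448. Reads of close paralogs, such as hspa4 and hspa4a, may be split between rows in a way that is not stated.

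Cochaperones gave 7 members of 11 steady rows, beside 10.4% of all steady rows, and the other 4 were between 2 and 4 times. The myosin chaperone gene unc45b was at 25.6, 32.7, 33.2 and 888 RPKM, with the highest level at 28 °C of all members and a jump ratio of 26.7. The gene bag2, whose product inhibits the ubiquitin ligase Chip on Hsp70 clients, was among the most level below 28 °C, at 7.55, 7.97, 7.82 and then 143 RPKM (17.9). Of the J-domain genes, whose proteins hand clients to Hsp70 and start its ATP use, 6 were members. Apart from the lumenal pair dnajc3 and dnajb11, described with the endoplasmic reticulum, 4 were in this list and covered a wide range of levels. The highest was dnajb4 at 24.9, 26.8, 30.7 and 449 RPKM (14.7). Next came dnajb2 at 16.9, 15.3, 17.2 and 212 RPKM (12.3). The other pair, dnajb1a and dnaja1, started lower. The values were 3.08, 2.39, 2.43 and 27.7 RPKM for dnajb1a (8.99). For dnaja1 they were 2.36, 3.20, 3.10 and 18.5 RPKM (5.79). The gene ptges3, for the Hsp90 cochaperone p23 that steadies the closed chaperone, was at 18.2, 17.4, 15.8 and 188 RPKM (10.4). The order of the lower libraries depended on the scaling: as deposited 23 °C was the highest of the 3 for unc45b, dnajb4 and dnajb2, and under the 3 scalings it was for 6, 7 and 7 of the 7 genes.

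Folding machines of mitochondria and the cytoskeleton gave 3 members of 4 steady rows, beside 10.4% of all steady rows. The mitochondrial Hsp60 gene hspd1, which encodes the barrel-shaped chaperonin, was at 9.79, 9.39, 12.3 and 116 RPKM (9.42). The mitochondrial Hsp70 gene hspa9, whose product pulls proteins through the inner membrane, was at 13.6, 13.0, 18.5 and 119 RPKM (6.46). The tubulin cofactor gene tbcb, for a protein that handles newly folded alpha-tubulin, was at 9.59, 8.01, 10.7 and 109 RPKM (10.2). These 3 reached 109 to 119 RPKM at 28 °C and had their highest lower value at 23 °C. The fourth steady row was cct6a, a subunit of the cytosolic chaperonin, at 94.3, 85.6, 93.0 and 222 RPKM.

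Several better known relatives were not steady as deposited and had larger jump ratios than any of the 12 members, which ran from 5.79 to 26.7. The ratio was 303 for hspa1b, an inducible Hsp70 gene, 103 for hspbp1, 71.6 for dnajb1b, 59.5 for bag3 and 46.3 for hspb1. Of 7 cytosolic chaperone rows and 10 cochaperone rows that were not steady, 6 and 9 were also at 4 times the highest lower level or more at 28 °C. This held for 90 of all 1878 rows at 1 RPKM or more that were not steady and not listed as noncoding RNA records. The gene hspa4a was at 3.84, 7.32, 12.8 and 390.5 RPKM from 12 to 28 °C, where its paralog hspa4 lay within 1.21 times from 12 to 23 °C. The gene dnajb1b was at 5.89, 5.06, 3.80 and 422 RPKM, with a highest over lowest ratio of 1.55, beside 1.29 for dnajb1a, whose jump ratio was 8.99. This contrast held only as deposited, since dnajb1b was steady and met the rule under all 3 scalings. The gene bag3 met it under the last of them. The Hsp60 partner gene hspe1 was at 8.29, 11.6, 18.6 and 169 RPKM, with a highest over lowest ratio of 2.24. The paralogs and partners in this paragraph were chosen after their values were seen.

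Membership of the chaperone genes depended on scaling. All 12 stayed at a jump ratio of 4 or more under the 3 scalings, but 5, 4 and 5 rows of these lists were members under them, of which 4, 3 and 3 were among the 12, and ptges3 and dnajb1a stayed members under all 3. When the 23 °C library is raised, genes with a slightly higher 23 °C value, such as hspd1, hspa9, unc45b and tbcb, go above the limit of 1.5 and are no longer steady. Leaving the 12 °C library out of the rule gave 20 members in these lists, and leaving out the 23 °C library gave 22.

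**Figure D3:**
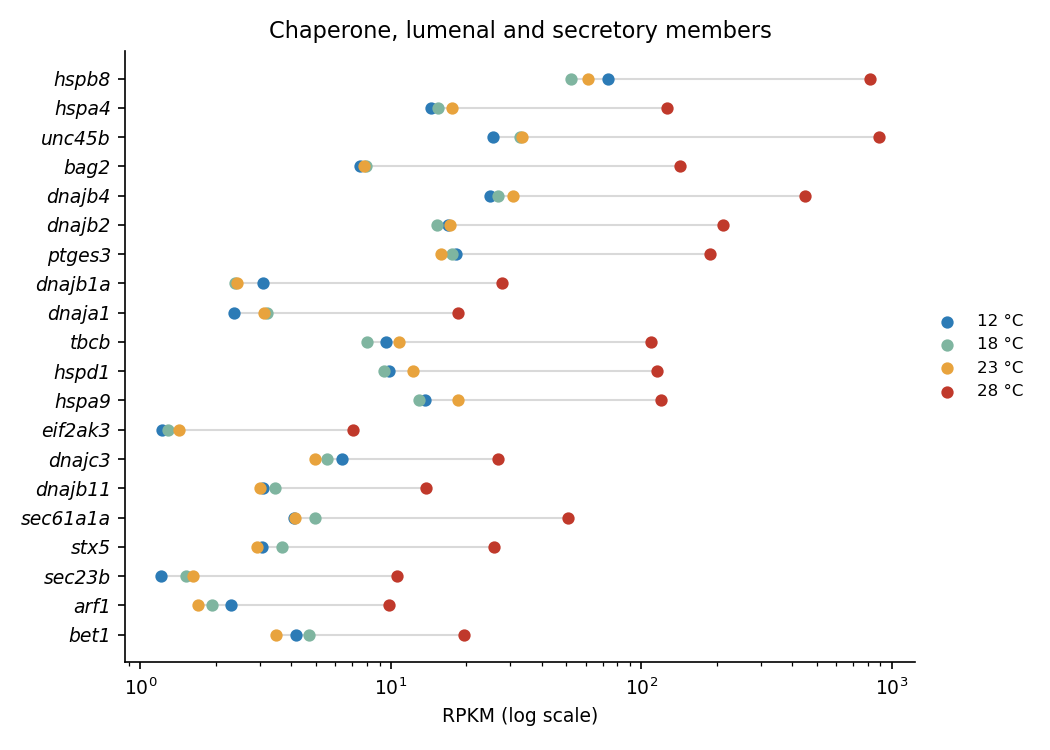
RPKM (log scale) at 12, 18, 23 and 28 °C, 1 library each, for the 20 members in the lists of cytosolic chaperones, cochaperones, mitochondrial and cytoskeletal folding factors, endoplasmic reticulum stress and secretory pathway, in that order from the top. In each row the 3 lower libraries lie together and the red 28 °C point stands apart, highest for unc45b at 888 RPKM and lowest for eif2ak3 at 7.08 RPKM.

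The endoplasmic reticulum list had 3 members of 14 steady rows, beside 10.4% of all steady rows. At 2 times or more were 12 of the 14 (85.7%), beside 45.6% of all steady rows. The gene eif2ak3 encodes Perk, the sensor kinase that slows translation when the lumen holds unfolded protein, and was at 1.22, 1.29, 1.43 and 7.08 RPKM (4.95). The gene dnajc3, for a lumenal J-domain protein that also restrains Perk in mammals, was at 6.36, 5.53, 4.96 and 26.8 RPKM (4.21). The lumenal J-domain gene dnajb11, a partner of BiP, was at 3.08, 3.43, 2.99 and 13.8 RPKM (4.03). All 3 lay below the median jump ratio of the members. Under the 3 scalings eif2ak3 and dnajb11 stayed members in 1 and dnajc3 in 2. The jump ratio of dnajb11 was 3.91 and 3.31 under the first pair. Many lumenal chaperones were not steady: hspa5, the gene for BiP itself and named after its values were seen, was at 4.45, 11.8, 14.0 and 255.0 RPKM.

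Genes of the secretory route, which carries proteins from the endoplasmic reticulum to the Golgi, had 5 members of 23 steady rows. At 2 times or more were 21 of the 23 (91.3%). Of all steady rows, 10.4% were members and 45.6% were at 2 times or more. The translocon gene sec61a1a, for the channel through which new proteins enter the endoplasmic reticulum, was at 4.09, 4.96, 4.14 and 51.1 RPKM (10.3). The Golgi fusion gene stx5 was at 3.06, 3.68, 2.91 and 25.8 RPKM (7.03). The gene sec23b, for a coat protein of outgoing COPII vesicles, was at 1.21, 1.52, 1.63 and 10.6 RPKM (6.49). As deposited, these 3 stood clear of the threshold of 4, and the other pair lay close to it. The gene arf1, whose product recruits the COPI coat, was at 2.30, 1.94, 1.70 and 9.86 RPKM (4.28). The gene bet1, for a SNARE of the same route, was at 4.17, 4.70, 3.48 and 19.6 RPKM (4.17). Under the 3 scalings stx5 and bet1 stayed members in all 3, and sec61a1a and arf1 in 2. The gene sec23b stayed a member in none, with highest over lowest ratios of 1.61 to 1.99.

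Transcription factors of the early stress response gave 4 members of 14 steady rows (28.6%), with 12 of the 14 (85.7%) at 2 times or more. Of all steady rows, 10.4% were members and 45.6% were at 2 times or more. The AP-1 gene junbb was at 2.59, 3.10, 2.11 and 47.8 RPKM (15.4). A further member without a symbol, LOC109645963, had values proportional to those of junbb within 0.000278%, so the same reads may stand behind both rows and their levels are uncertain. Counting the pair once gives 127 members. The AP-1 gene fosl2 was at 1.34, 1.04, 1.11 and 9.33 RPKM (6.96). The small Maf gene maff was at 1.48, 1.02, 1.21 and 7.82 RPKM (5.28). The zinc finger gene klf6a was at 1.66, 2.03, 1.45 and 8.98 RPKM (4.42). These last 3 lay near the 1 RPKM minimum at the lower temperatures, where the counting error was not estimated. Under the 3 scalings junbb stayed a member in all 3, fosl2 and klf6a in 2 and maff in 1.

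Among stress kinases and their partners, 3 of 9 steady rows were members and 3 were at most at 50% at 28 °C. Of all steady rows, 10.4% were members and 18.2% were at most at 50%. The kinase gene mknk1, whose product phosphorylates the cap-binding factor eIF4E, was at 1.82, 2.0, 1.62 and 20.8 RPKM (10.4). The products of gadd45g and gadd45b act on stress kinases and the cell cycle. The levels of gadd45g were 4.67, 3.54, 3.31 and 45.0 RPKM (9.63). Those of gadd45b were 4.47, 4.27, 5.81 and 24.7 RPKM (4.25). It stayed a member under none of the 3 scalings, with jump ratios of 3.60 and 3.04 under the first pair. Of 6 steady rows of the cell death list, 3 were members and 1 was at most at 50%, beside the same 10.4% and 18.2%. The initiator caspase gene casp8 was at 2.08, 2.44, 2.46 and 34.6 RPKM (14.0). On the other side, birc2, whose product is a ubiquitin ligase that holds caspase signalling back, was at 6.92, 5.38, 4.76 and 42.3 RPKM (6.11). The third, phlda2, was at 3.50, 4.38, 4.10 and 38.5 RPKM (8.78). Both casp8, which promotes cell death, and birc2, which restrains it, were thus in the set as deposited. Under the 3 scalings casp8 stayed a member in 1, phlda2 in 2 and birc2 in all 3.

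Of 8 steady glucose genes, 3 were members and 6 were at 2 times or more, beside 10.4% and 45.6% of all steady rows. The glucose transporter gene slc2a1b was at 6.65, 9.51, 9.76 and 73.8 RPKM (7.56) and was also the 1 member of the hypoxia list, all 5 of whose steady rows were at 2 times or more. The hexokinase gene hk1, which traps glucose in the cell, was at 1.63, 1.39, 1.85 and 13.9 RPKM (7.48). The glyceraldehyde-phosphate dehydrogenase gene gapdhs was at 20.4, 18.6, 24.9 and 102 RPKM (4.10). None of these 3 genes stayed a member under any of the 3 scalings, where their highest over lowest ratios were above 1.5, and the jump ratio of gapdhs was 3.47 and 2.93 under the first pair.

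**Figure D4:**
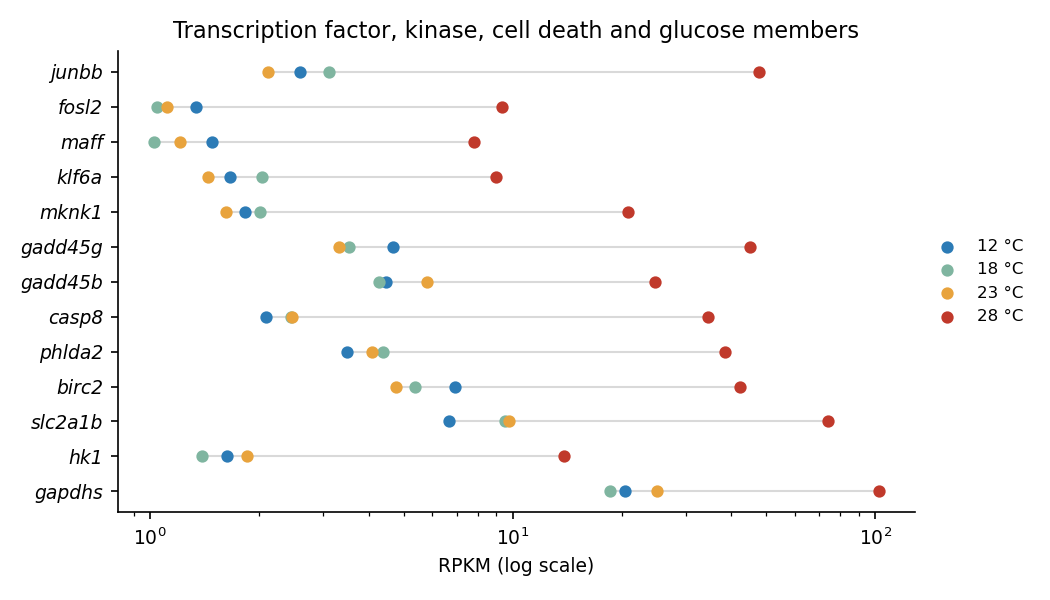
RPKM (log scale) at 12, 18, 23 and 28 °C, 1 library each, for the 13 members with a symbol in the lists of early transcription factors, stress kinases, cell death and glucose use, in that order from the top. The red 28 °C points lie between 7.82 RPKM (maff) and 102 RPKM (gapdhs), each clear of its 3 lower libraries.

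Other lists had 1 member each, named here whatever their rank. The share over all steady rows was 10.4%, and the counts of these lists are too small to be set apart from it. The arsenite-inducible zinc finger gene zfand2a, whose product binds the proteasome, was at 4.47, 3.83, 3.98 and 27.7 RPKM and was the 1 member of 11 steady rows of the ubiquitin and autophagy list. The nuclear import gene kpna6 (1 of 5 steady rows) was level at 9.91, 9.88 and 9.56 RPKM and then at 60.8 RPKM. Genes of RNA and protein synthesis were represented by the spliceosome gene prpf6 (1 of 15 steady rows, jump ratio 5.37), the tyrosyl-tRNA synthetase gene yars (1 of 7, 4.22), nhp2, a core protein of RNA-modifying particles (1 of 5, 4.17), the RNA polymerase II subunit gene polr2d (1 of 12, 4.15) and the ATP-binding cassette gene abcf2 (1 of 4, 4.02). Under the 3 scalings zfand2a, kpna6 and prpf6 stayed members in all 3, nhp2 and polr2d in 1, and yars and abcf2 in none. Of the 15 steady splicing and RNA-binding rows, 40.0% were at 2 times or more, close to the 45.6% of all steady rows. The antioxidant, proteasome and collagen lists had 0 members, of 4, 1 and 5 steady rows, again too few to be set against 10.4%. In all, 41 members were in 1 or more of the 22 gene lists, out of 175 steady rows in them (23.4%), beside 7.76% of the 760 steady rows with a symbol in no list. The lists were chosen with earlier results of these data known, so these shares are no independent comparison.

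**Figure D5:**
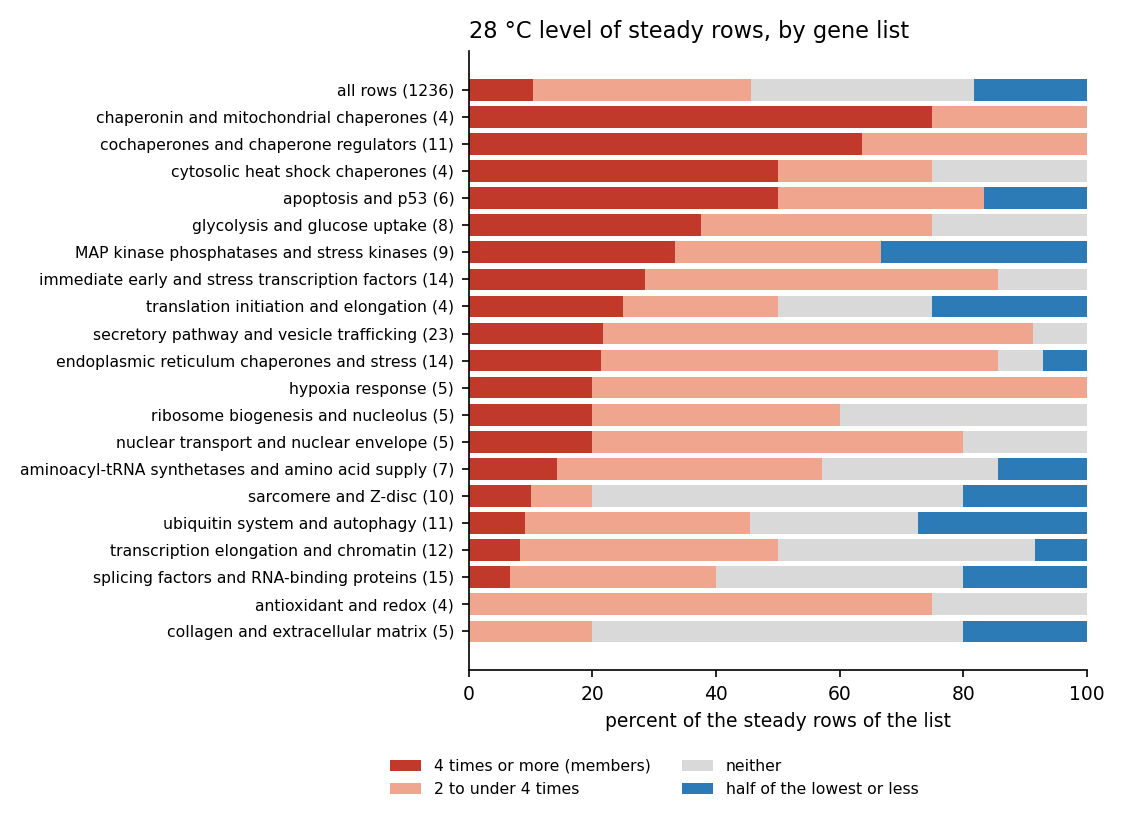
For each gene list with 4 or more steady rows (number in brackets) and for all 1236, the percent of steady rows whose 28 °C level was at least 4 times the highest lower level (members), 2 to under 4 times, neither, or at most at 50% of the lowest. Members make up 3 of 4 rows of the chaperonin and mitochondrial list, 7 of 11 of the cochaperone list and 10.4% of all rows. Steady rows are in the table only through a change at 28 °C.

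A further 59 members had a symbol and were in no list, with a median jump ratio of 5.22. The following were chosen after their values were seen. The genes pgm3, gmppb and pmm2, for enzymes that make sugar donors for glycoproteins, were at 1.61, 1.92 and 3.04 RPKM at their highest from 12 to 23 °C and at 11.3, 15.0 and 16 RPKM at 28 °C. The Golgi retrieval gene rer1 was at 3.55, 4.01, 3.76 and 18.5 RPKM in order of temperature. The gene ufc1, which encodes the conjugating enzyme for the ubiquitin-like tag Ufm1, was at 2.60, 3.06, 2.36 and 20.9 RPKM. The gene hgh1, whose yeast counterpart assists the folding of elongation factor 2, was at 5.67, 5.97, 5.41 and 32.6 RPKM. Besides mta2, the NuRD subunit gene mbd3b was a member, at 7.29, 5.75, 7.14 and 33.3 RPKM. Caprin1a, named for an RNA-binding protein of stress granules, was at 1.63, 1.63, 1.40 and 13.7 RPKM. Of these genes, pgm3, gmppb and mta2 stayed members under none of the 3 scalings, and mbd3b and rer1 under 1. The genes pmm2, ufc1, hgh1 and caprin1a stayed members under all 3.

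Some of the 59 are genes of immune signalling. The interleukin-4 pathway factor gene stat6 was at 2.92, 3.06, 2.86 and 27.5 RPKM. The interferon regulatory factor gene irf5 had 1.97, 2.11, 2.39 and 13.8 RPKM. The chemokine receptor gene cxcr4 had 1.48, 1.73, 1.46 and 13.4 RPKM. Of these, irf5 stayed a member under none of the 3 scalings, and stat6 and cxcr4 under all 3. Immune cell markers were also highest at 28 °C. The summed level of 8 such markers was 21.7, 8.98, 9.15 and 40.5 RPKM from 12 to 28 °C, none of them was listed at 0 in any library, and 1 of the 8 was steady. Their part in the levels of stat6, irf5 and cxcr4 was not tested. In tissue RNA, more cells of a type and more RNA per cell cannot be told apart.

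The remaining 28 members have no symbol and were 9.3% of the steady rows without one, close to the 10.4% of all steady rows. Their jump ratios ran from 4.03 to 19.5 with a median of 5.17, and their 28 °C levels from 5.46 to 391 RPKM. Of the 10 highest 28 °C levels in the set, 3 belonged to them, and the others were unc45b, hspb8, dnajb4, lmod3, dnajb2, scd and ptges3.

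Whether the members sloped below 28 °C depended on the scaling. As deposited, the highest lower value was at 12 °C for 47 genes, at 18 °C for 42 and at 23 °C for 39, beside 595, 360 and 281 of all 1236 steady rows. The values went up at both steps from 12 to 23 °C in 23 members and down at both in 22 (17.2%), beside 149 and 406 (32.8%) of all steady rows. Under the 3 scalings 23 °C was the highest of the 3 for 96, 105 and 106 members, beside 724, 825 and 949 of all steady rows. The values then went up at both steps in 34, 41 and 83 members, beside 254, 320 and 718 of all 1236 steady rows. They went down at both in 4, 2 and 0 members, beside 69, 40 and 0 of all steady rows. In the authors' deposited table all 128 members carry cluster number 4, which holds 4132 of the 11646 rows and 639 of the 1236 steady rows. How the authors made the clusters is not stated, so the shared number is given as a description.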

How the data were processed

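The authors deposited 1 table with an RPKM value per gene for each of 4 muscle samples, per the file headers. The submitters' processing notes list TopHat2 and Cufflinks, without a version. Which build and annotation were used is not given in the sources used here. The authors' 3 comparison columns are headed log2 but are natural log values: 11635, 11641 and 11633 rows equal the natural log ratio to 12 °C plus a constant within 0.00001, per the deposited values. As factors these constants are 0.942, 1.27 and 0.91. The other columns hold the authors' cluster numbers, with no method stated in the file headers (other).

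Members were found with Python 3.11.15 and pandas 2.3.3, without a pseudocount. Symbols came from the table for 72 members and, through gene IDs, from a RefSeq gene table of assembly ASM2471397v2 for 28. Of 56 members with a numbered ID, 48 were found there. Of the members, 8 have no transcript accession in the table. Named by rule are the 15 largest jump ratios, the 10 highest 28 °C levels, up to 6 members of each list with at least 2, and the rows nearest each threshold. Also named, outside that rule, were dnaja1, the last cochaperone member by jump ratio, and the single members of other lists. So were rows given for comparison and the genes marked as chosen after their values were seen. Genes without a symbol are counted. Members and gene lists were chosen with earlier results of these data known. The rule and the median scaling over rows above 0 were run on simulated data, and the other scalings were not. Most simulated rows did not change between libraries, whereas every row of the deposited table did. The simulation therefore checks the code and cannot say whether median scaling is right for this table. With 1 library per temperature no test was made. Promoter and protein sequences were not used here, so the planned search for heat shock elements was not made.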

Additional observations from a re-analysis of the deposited data

How the results depend on the processing

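The number of members was 128 as deposited and 66 with the authors' constants as scaling. Changing the limits gave 36 members with a minimum of 5 RPKM, 250 with no minimum above 0, 53 with a highest value at most 25% above the lowest, 259 with a jump of at least 3 times and 29 with at least 8 times. Leaving the 12 °C library out of the rule gave 225 and leaving out the 23 °C library 235, while leaving out the 18 °C library gave 191. Members in any gene list numbered 41 as deposited, 22 with the authors' constants and 18 with the 5 RPKM minimum. They numbered 17 with a highest value at most 25% above the lowest and 62 with a highest over lowest ratio of up to 2. Jumps of at least 3 and 8 times gave 66 and 16, and leaving out the 12 °C or the 23 °C library gave 74 each. The median log2 jump ratio of the 128 was 2.45 and lay between 2.16 and 2.69 under 7 other pseudocounts, bases and scalings. Of 38 genes named by rule, 1 changed by more than 1.5 times with a pseudocount of 1 RPKM (fosl2, from 2.80 to 2.14 on the log2 scale), and 0 did with median scaling over rows above 0 or with the mean of the lower libraries as base. Stricter limits keep fewer rows by construction. Scaling changes the ratios that the rule uses, so the shifts in membership with scaling also follow from the rule. Whether the libraries differ in scale, and why, was not tested. No paired analysis was possible because each temperature has 1 library. The search for heat shock elements was not run.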

Other observations

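The conditions kept out genes with the same shape at other levels. At less than 1 RPKM in 1 or more of the lower libraries, 122 further rows were steady and at least 4 times higher at 28 °C, among them the MAP kinase phosphatase gene dusp5 at 0.977, 1.45, 1.17 and 26.9 RPKM from 12 to 28 °C. At 1 RPKM or more, 90 rows were 4 times higher at 28 °C without being steady, 52 of them within a highest over lowest ratio of 2. Of noncoding RNA records, 5 met all other conditions, with jump ratios from 4.15 to 12.8.

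In the gene order of the RefSeq assembly, 116 members could be placed, and 0 pairs of members were adjacent. Of the 98 neighbouring protein-coding genes that are in the table, 14 were at 4 RPKM or more and at least 4 times their highest lower level at 28 °C. Among all rows not listed as noncoding RNA records this held for 3.58%. That share counts the members, and none of the neighbours is a member, so the sets are not alike. The neighbours include hspe1 beside hspd1, the Hsp60 gene, and hspa4a beside zcchc10 (1.77, 1.73, 1.37 and 14.4 RPKM). The gene aptx, for a DNA end repair enzyme, lies beside dnaja1 and was at 0.706, 1.03, 0.595 and 17.1 RPKM. The gene creld2, an endoplasmic reticulum stress gene, lies beside pim3 and was at 0.434, 1.33, 1.17 and 11.3 RPKM. These neighbours were chosen after their values were seen, and the build of the table is not stated.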
